A study of Mus musculus with 9 samples.

Results

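Heatr1, Nol10, Snora75, Gm23187 and Gm23202 are 2 protein-coding ribosome biogenesis factors and 3 small nucleolar RNA (snoRNA) models, chosen by symbol as 5 of the 217 distinct genes in the deposited tables. The tables hold genes that the authors selected for being higher, so each of the 5 was chosen by the comparisons that list it. The cells were Hepa1-6, a wild-type mouse hepatocarcinoma line grown in DMEM with fetal bovine serum, in 9 RNA-seq libraries of 3 groups. The control group had no treatment per the sample labels and PBS per the series description. One group received the material P-Por-Os at 25.57 µg/mL, and another received P-Por-Os at 25.57 µg/mL with ultrasound (P-Por-Os+US). Each group has 3 libraries, and the labels do not say whether they came from separate cultures, so the spread given here may be technical. None of 11 hepatocyte and hepatoma markers was among the listed genes, so the cell type could not be checked from these values.

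Ribosomes are built in the nucleolus, where a long precursor rRNA is transcribed, cut, chemically modified and assembled with ribosomal proteins. HEATR1 is a large nucleolar protein of the small-subunit processome that also acts in transcription of the rRNA genes. NOL10 is a nucleolar protein whose yeast counterpart, Enp2, belongs to the same processome. SnoRNAs of the C/D class guide ribose methylation and those of the H/ACA class guide pseudouridylation of rRNA. Most are processed from introns of host genes, many of which encode ribosomal or nucleolar proteins.

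The sequences of the 3 snoRNA models are given because their sequence class, their length and their position inside host genes bear on what their read counts measure. They come from the GENCODE M21 transcript set (GRCm38), written 5′ to 3′ as DNA. In Gm23187 the capitals mark TGATG, the core of the C box, within the first 15 bases and CTGA, the D box, within the last 15. In Snora75 and Gm23202 they mark ACA exactly 3 bases before the end, the ACA box.
Snora75: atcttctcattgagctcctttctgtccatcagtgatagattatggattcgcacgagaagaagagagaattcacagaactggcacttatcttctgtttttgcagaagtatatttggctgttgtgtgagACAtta
Gm23187: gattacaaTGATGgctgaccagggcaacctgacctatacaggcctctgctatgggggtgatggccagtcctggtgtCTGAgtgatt
Gm23202: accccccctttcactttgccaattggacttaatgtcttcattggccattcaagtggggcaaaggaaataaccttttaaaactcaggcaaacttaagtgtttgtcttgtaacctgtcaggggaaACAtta
The letters were searched on the annotated strand only. Both C/D letters in those windows occur in 23.0 percent of the 1507 snoRNA models of that annotation, and the ACA letters in 18.3 percent. No pair of the 3 models shares a run longer than 6 bases.

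Each snoRNA model lies on the same strand inside a gene of ribosome production. Snora75 is 133 bases long, at chr1:86351169-86351301 on the minus strand, inside Ncl, which encodes the nucleolar protein nucleolin. RefSeq places Snora75 from 86351170 to 86351285, a shorter model of 116 bases. Gm23187 is 86 bases long, at chr2:130277195-130277280 on the plus strand, inside Nop56, which encodes a core protein of C/D snoRNA particles. Gm23202 is 129 bases long, at chr5:146835144-146835272 on the plus strand, inside Rpl21, which encodes a protein of the large ribosomal subunit. RefSeq has unnamed snoRNA loci with the same limits as Gm23187 and Gm23202.

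All 3 models fall in introns of the coding transcript with the most exons in their host gene, but exons of other host transcripts cover them. Retained-intron exons of Ncl cover all 133 bases of Snora75. Exons of 8 Nop56 transcripts, 5 of them of the retained-intron type and 1 protein-coding, overlap Gm23187 and together cover all 86 bases. One retained-intron exon of Rpl21 covers 67 of the 129 bases of Gm23202, or 51.9 percent. How the counting assigned reads that lie in both a model and its host is not given in the sources used here. Reads of the snoRNA and of host RNA, which for Gm23187 includes a coding transcript, therefore cannot be told apart. The host genes Ncl, Nop56 and Rpl21 were not among the listed genes, and their values were not used here. Snora75 also shares 39.8 percent of its 31-base words with another snoRNA model, Gm22972, and the same percent with transcripts of Dpep2. Gm23187 shares 23.2 percent with Gm22498, so the split of reads among such sequences is uncertain.

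**Figure D1:**
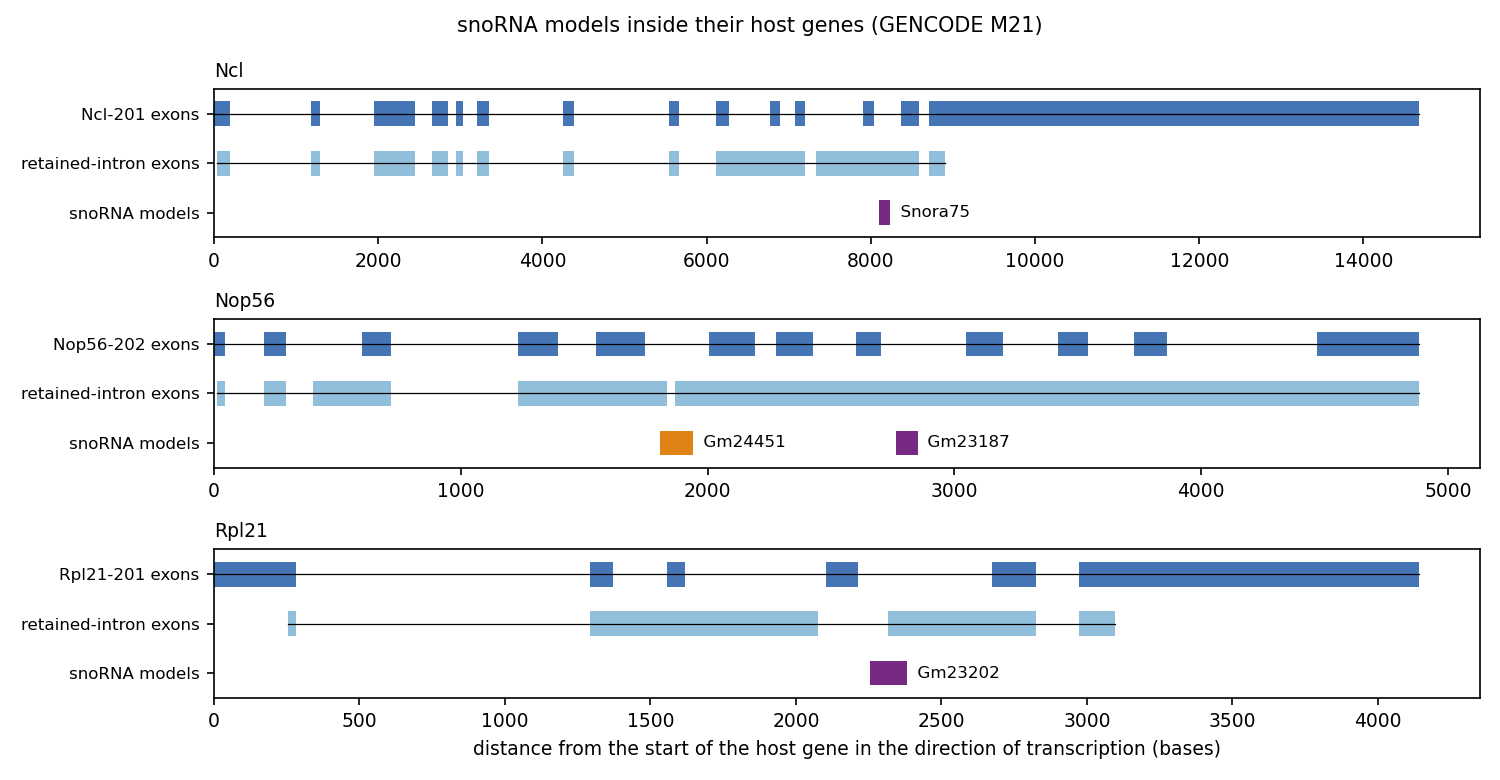
Position of snoRNA models inside Ncl, Nop56 and Rpl21, with distance in bases from the start of the host gene in the direction of transcription. Dark boxes are exons of one protein-coding transcript, light boxes are the combined exons of retained-intron transcripts, purple boxes are Snora75, Gm23187 and Gm23202, and the orange box is Gm24451, another listed model. The purple boxes sit between dark exons and wholly or partly over light ones.

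The coding factors are long genes on other chromosomes. Heatr1 lies at chr13:12395027-12440289 on the plus strand with 7828 exonic bases, of which 155 also lie in exons of Lgals8 on the opposite strand. Nol10 lies at chr12:17348458-17430095 on the plus strand with 3021 exonic bases. It holds the miRNA gene Mir3066 on the same strand, which overlaps none of its exonic bases.

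Heatr1 and Nol10 were listed together after P-Por-Os+US, so the 250 bases before a RefSeq start of each (GRCm38.p6) were searched on both strands. The letters were CCGGAAG, a consensus of sites of ETS factors, and CACGTG, the E-box core. CCGGAAG occurred once in each, beginning 16 bases before the start used for Heatr1 and 80 bases before that used for Nol10. Annotated starts differ: the GENCODE gene of Heatr1 begins at 12395027, upstream of this match. The RefSeq gene of Nol10 begins at 17348421, upstream of the start used and just after the match. Some of the searched bases of both genes thus lie inside annotated genes. The windows of 30 bases on the plus strand are chr13:12395345-12395374 and chr12:17348401-17348430, with the match in capitals, on the minus strand in Nol10.
Heatr1: gccgtagtgagaagCCGGAAGttcctatga
Nol10: agtgagcgcgcaCTTCCGGagccaggaagt
The same letters occur in 6.91 percent of 32851 such windows. CACGTG was in neither window, and in 6.02 percent of all of them. These matches describe the letters only.

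The comparison of P-Por-Os+US with control asks what the combination changed, and it listed all 5 genes. The authors' deposited table lists 61 genes as higher and 0 as lower, which is 0.403 percent of the 15142 genes tested, a number recovered from the ratios of p to adjusted p. As these 5 genes were chosen from the tables, nothing is read from their number. In that comparison the coding factors and Snora75 stood at about the fold minimum, and Gm23187 and Gm23202 stood higher. In bulk RNA, a change in the mix of cell states and a change in RNA per cell cannot be told apart.

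Heatr1 was at 3.11, 3.53 and 4.37 RPKM (reads per kilobase of exon, scaled to library size) in control replicates 1, 2 and 3. It was at 7.37, 7.82 and 8.24 RPKM in the P-Por-Os+US libraries. Every P-Por-Os+US library lay above every control library, and control replicate 3 was the highest of its group. The means were 7.81 ± 0.435 against 3.67 ± 0.643 RPKM (SD, n = 3 each), a ratio of 2.13, where the authors' deposited table has a log2 fold of 1.04. Without control replicate 1, the lowest control, the log2 ratio of means fell from 1.09 to 0.98.

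Nol10 was at 8.88, 8.95 and 9.67 RPKM in control and at 19.6, 20.2 and 19.3 RPKM after P-Por-Os+US. The groups were tight and far apart, with the lowest treated library 2.00 times the highest control library. The means were 19.7 ± 0.452 against 9.17 ± 0.439 RPKM (SD, n = 3 each), a ratio of 2.15. The authors' deposited table gives a log2 fold of 1.05.

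Snora75 was at 26.3, 22.0 and 26.5 RPKM in control and at 69.0, 46.3 and 44.2 RPKM after P-Por-Os+US. The groups did not overlap, but P-Por-Os+US replicate 1 stood apart from the other treated libraries. The means were 53.2 ± 13.8 against 25.0 ± 2.54 RPKM (SD, n = 3 each), a ratio of 2.13, where the authors' deposited table has a log2 fold of 1.04. Without P-Por-Os+US replicate 1 the log2 ratio of means was 0.86, against 1.09 with it.

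Gm23187 was at 12.0, 15.1 and 12.6 RPKM in control and at 40.9, 33.4 and 43.5 RPKM after P-Por-Os+US. The lowest treated library was 2.21 times the highest control library. The means were 39.3 ± 5.26 against 13.2 ± 1.64 RPKM (SD, n = 3 each), a ratio of 2.97. The authors' deposited table gives a log2 fold of 1.50.

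Gm23202 was at 2.68, 2.36 and 3.53 RPKM in control and at 9.31, 8.95 and 6.02 RPKM after P-Por-Os+US. The groups did not overlap, and P-Por-Os+US replicate 3 was the lowest treated library. The means were 8.09 ± 1.80 against 2.85 ± 0.605 RPKM (SD, n = 3 each), a ratio of 2.84. The authors' deposited table gives a log2 fold of 1.45. These values rest on 11 to 16 reads per control library and 27 to 42 per treated library.

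**Figure D2:**
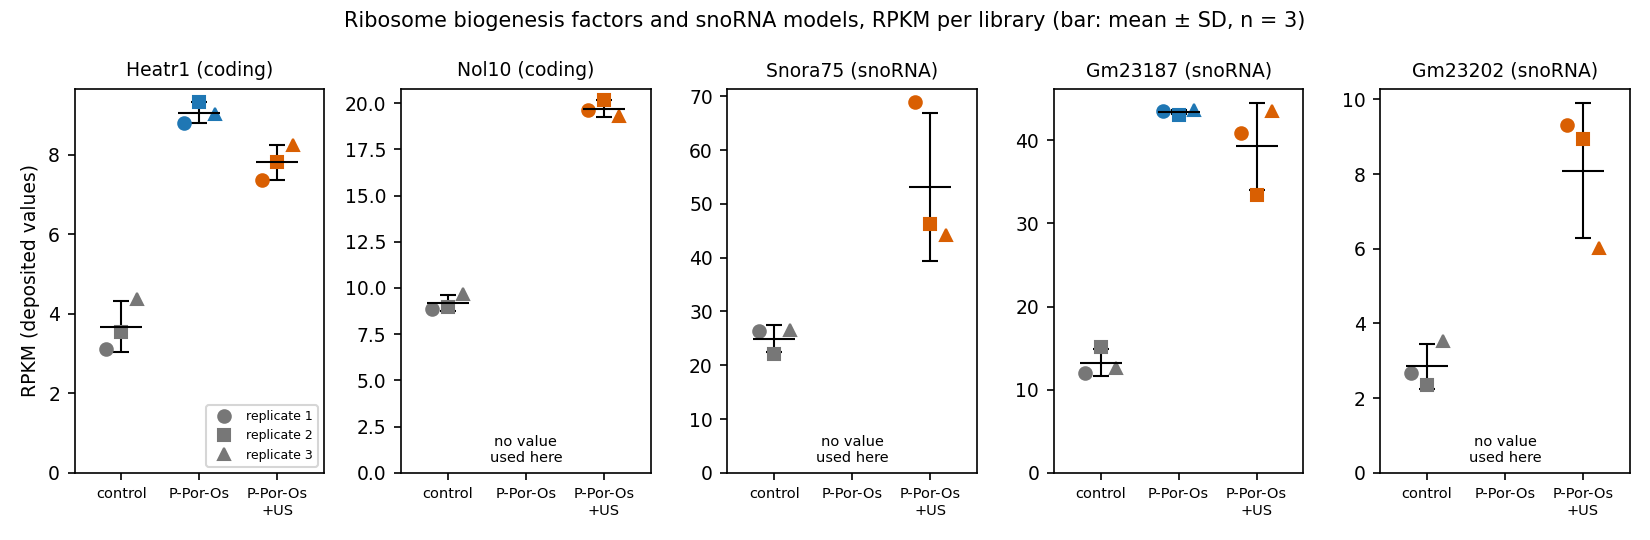
RPKM of Heatr1, Nol10, Snora75, Gm23187 and Gm23202 in each library (points, shaped by replicate number) with the mean and SD of each group of 3 (bars). All treated points lie above all control points, and P-Por-Os+US replicate 1 lies highest for Snora75, at 69.0 RPKM.

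The authors' log2 folds differed from the log2 ratios of mean RPKM by a median of -0.06 over the 61 listed genes. The median log2 fold over all 61 was 1.16 in the authors' deposited table. Heatr1, Nol10 and Snora75 ranked 50, 49 and 52 of 61 by fold there, and Gm23187 and Gm23202 ranked 12 and 14. By p-value the order was otherwise, with Heatr1 and Nol10 at 8 and 9 and the snoRNA models at 24 to 46. For 59 of the 61 genes every treated library lay above every control library. These values chose the genes and are given as a description. The listed genes nearest to the fold minimum of 1 were Cry1, Emp1 and Gm16122, at log2 folds of 1.00, 1.00 and 1.02, and genes just below the minimum were not analysed here.

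**Figure D3:**
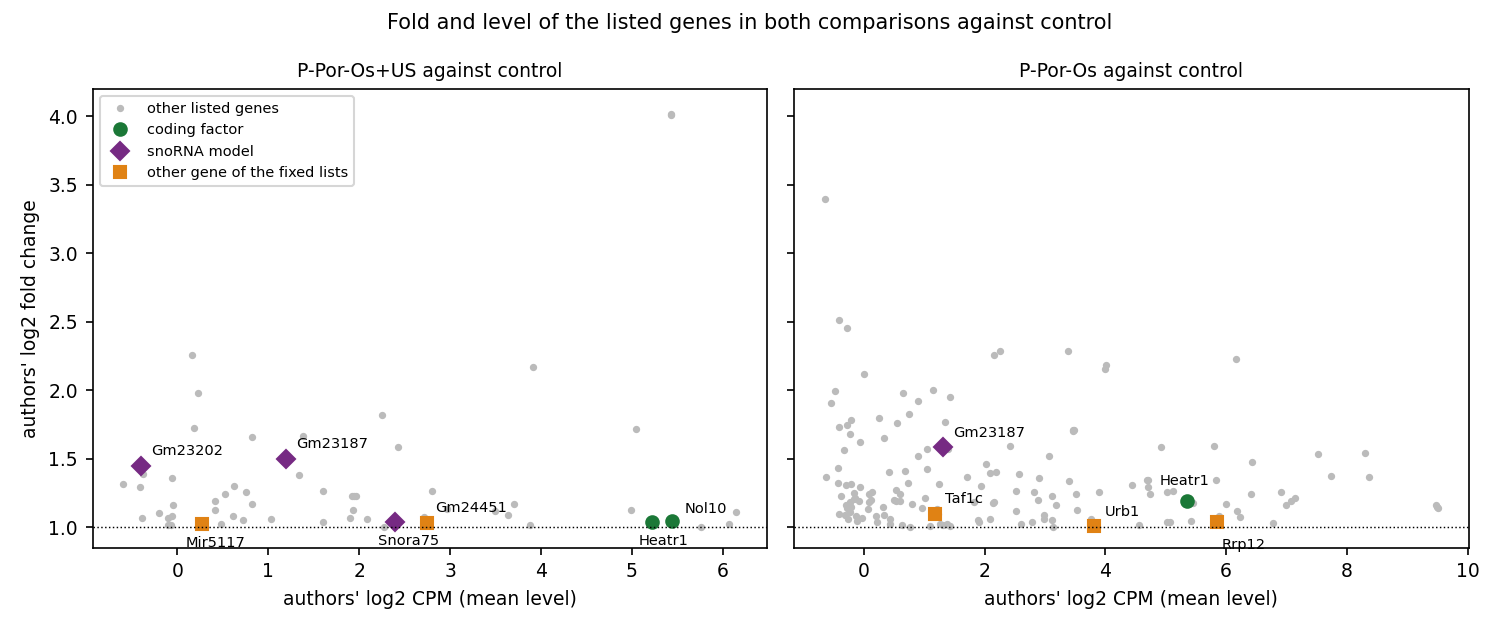
Log2 fold against mean log2 CPM in the authors' deposited tables, for P-Por-Os+US (left) and P-Por-Os (right) against control. Green points are coding factors, purple diamonds are snoRNA models, orange squares are other genes of the lists of this report, grey points are other listed genes, and the dotted line is the fold minimum of 1. Heatr1 and Nol10 lie at high level and low fold, and Gm23202 at the low end of level, with a log2 CPM of -0.40.

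P-Por-Os without ultrasound against control asks what the material changed by itself. The authors' deposited table lists 160 genes as higher, 1.05 percent of 15270 tested, among them Heatr1 and Gm23187. Heatr1 was at 8.81, 9.34 and 9.04 RPKM after P-Por-Os, a mean of 9.06 ± 0.267 (SD, n = 3), 2.47 times the control mean. Gm23187 was at 43.5, 43.1 and 43.6 RPKM, a mean of 43.4 ± 0.287 (SD, n = 3), 3.28 times the control mean. The authors' log2 folds differed from the log2 ratios of mean RPKM by a median of -0.12 over the 160 genes. For Heatr1 and Gm23187 the log2 folds in the authors' deposited table were 1.19 and 1.59, and the median over its 160 genes was 1.24. No treated library overlapped a control library for either gene, as for 159 of the 160. Nol10, Snora75 and Gm23202 were not listed in this comparison, and their values after P-Por-Os alone were not analysed here. This comparison and the preceding one share their 3 control libraries.

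The third comparison, between the treated groups, asks what ultrasound added to P-Por-Os. It listed none of the 5 genes, in a table of 27 genes that is 0.179 percent of 15074 tested. This contrast did not list Heatr1 or Gm23187, and it was tested for both. Limma was run on log2(RPKM + 1) over the 28 genes that have values in all 9 libraries. Heatr1 and Gm23187 have all 9 values because both treated groups passed the log2 fold minimum of 1 against control. That selection used both groups of this contrast and limits how far apart they can lie, so the test is not free of it. Heatr1 was lower with ultrasound in every library, at 7.37 to 8.24 against 8.81 to 9.34 RPKM. All 27 genes listed in this contrast also had no overlap, in the other direction. How many of the 28 genes had none was not analysed here, so nothing is read from this separation. Its difference on the log2(RPKM + 1) scale was -0.19 ± 0.12 (SE), with a 95 percent interval from -0.44 to 0.06 and a limma adjusted p of 0.18. An exact permutation test of the 3 libraries against 3 gave a two-sided p of 0.1, the smallest that it can give. The adjusted p of Heatr1 ranged from 0.057 to 0.42 over 14 alternatives, so the difference did not pass 0.05 in any of them. The lowest adjusted p came without control replicate 3, where the unadjusted limma p was 0.037 and the 95 percent interval ran from -0.37 to -0.01. A limma fit of the treated libraries alone, chosen after seeing the data, gave an adjusted p of 0.059, an unadjusted p of 0.036 and an interval from -0.37 to -0.02. The authors' log2 folds of the 27 listed genes differed from log2 ratios of mean RPKM by a median of 0.07. With the P-Por-Os+US values scaled by that offset, the difference of Heatr1 shrank to -0.13, with a limma adjusted p of 0.39.

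For Gm23187 these groups overlapped, at 33.4 to 43.5 RPKM with ultrasound against 43.1 to 43.6 without. Its difference was -0.15 ± 0.15 (SE), with a 95 percent interval from -0.47 to 0.17 and a limma adjusted p of 0.42. An exact permutation test gave a two-sided p of 0.3. In this limma fit 0 of 2 genes passed an adjusted p of 0.05, and 0 of 2 an unadjusted p of 0.05. Of the 28 genes, 53.6 percent passed the adjusted p, with 13 genes higher with ultrasound and 2 lower. The 2 lower genes are 7.14 percent, the share for the direction in which Heatr1 and Gm23187 differed. Of these 28 genes, 10 were themselves listed as higher in this contrast. The intervals leave room for Heatr1 and Gm23187 to be lower with ultrasound by 0.44 and 0.47 on the log2(RPKM + 1) scale. They take no account of the selection of both genes against control in both treated groups, so they do not bound the effect of ultrasound.

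The coding factors and the snoRNA models can be set side by side in levels per length, in folds and in spread. In control the order of mean RPKM was Snora75 at 25.0, Gm23187 at 13.2, Nol10 at 9.17, Heatr1 at 3.67 and Gm23202 at 2.85. Only Heatr1 and Gm23202, neighbours in that order, overlapped between libraries. After P-Por-Os+US the order was Snora75 at 53.2, Gm23187 at 39.3, Nol10 at 19.7, Gm23202 at 8.09 and Heatr1 at 7.81, and again only the last pair overlapped. PCR products of 200 to 500 base pairs were selected, per the labels' protocols, and the snoRNA models have 86 to 133 bases, so a level per length means less for them than for the coding factors.

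Within a library, Nol10 was 2.53 ± 0.321 times Heatr1 in control and 2.53 ± 0.167 times after P-Por-Os+US (ratio of RPKM, SD, n = 3 each). Snora75 was 2.72 ± 0.254 times Nol10 in control and 2.70 ± 0.707 times after P-Por-Os+US. Gm23187 was 1.45 ± 0.210 times Nol10 in control and 2.00 ± 0.310 times after P-Por-Os+US, and Gm23202 was 0.310 ± 0.0512 and 0.410 ± 0.0860 times. Both ratios overlapped between the groups, that of Gm23187 from 1.30 to 1.69 in control and from 1.65 to 2.25 after P-Por-Os+US. The ratio of Gm23187 to Heatr1 was 3.67 ± 0.722 in control, 4.79 ± 0.167 after P-Por-Os and 5.03 ± 0.676 after P-Por-Os+US (SD, n = 3 each). Its control range of 2.87 to 4.28 lay below the 4.61 to 4.94 after P-Por-Os and overlapped the 4.27 to 5.55 after P-Por-Os+US. Both genes were chosen by their comparisons with control, so these ranges are a description. Between the treated groups the ratio differed by 0.06 on the log2 scale, with a two-sided p of 0.7 in an exact permutation test.

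The coding factors rested on more reads than the snoRNA models. Whole-read steps in the RPKM values place the library totals between 34744000 and 37664000 reads, and at these totals all 21 snoRNA values were whole reads within 0.05. Heatr1 rested on about 917 to 2625 reads per library and Nol10 on about 978 to 2167. Snora75 rested on 106 to 321 reads, Gm23187 on 38 to 137 and Gm23202 on 11 to 42. For Gm23202 in control, read counting alone would give a coefficient of variation (CV, SD over mean) of 27.4 percent, and the CV between libraries was 21.2 percent. Gm23187 in control was similar, at 12.4 percent against 15.6 percent from counting.

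Other values spread more than counting alone would give. The CV of Snora75 after P-Por-Os+US was 25.9 percent against 6.35 percent, from 321 reads in replicate 1 and 219 and 204 in the others. The CV of Heatr1 in control was 17.5 percent against 3.10 percent. Gm23187 after P-Por-Os went the other way, with 137, 133 and 135 reads and a CV of 0.662 percent where counting would give 8.61 percent. Counting error assumes independent reads, and PCR copies are not independent.

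**Figure D4:**
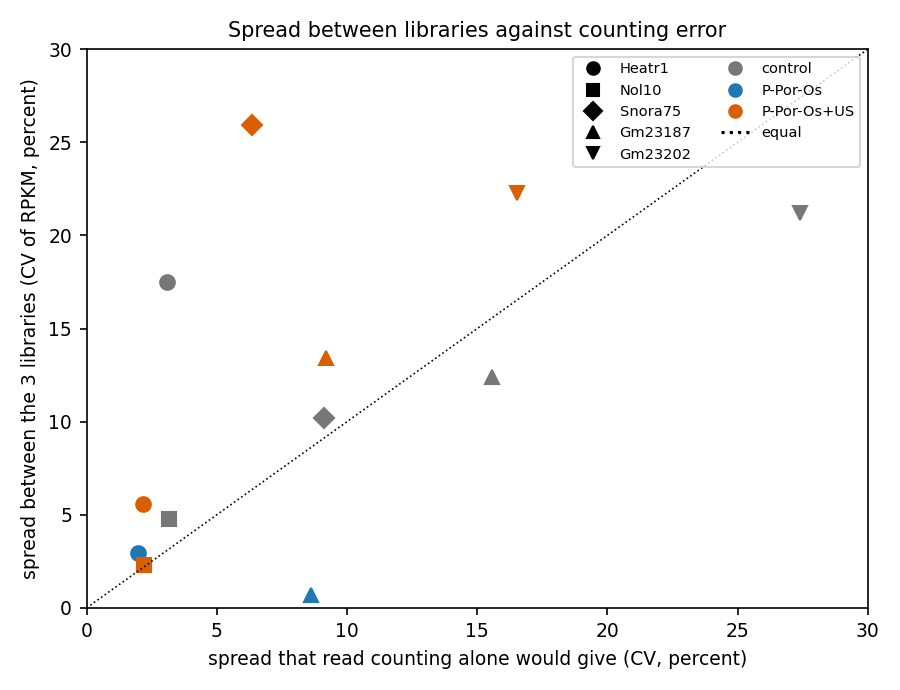
CV of RPKM between the 3 libraries of a group against the CV that read counting alone would give, both in percent, for the 5 genes (shapes) in each group (colours). The dotted line marks equality. Snora75 after P-Por-Os+US and Heatr1 in control lie far above it, and Gm23187 after P-Por-Os far below it.

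Other genes of the pathway were counted by lists. Of 128 ribosome biogenesis factors, 2 were listed after P-Por-Os+US, both described here, and 3 after P-Por-Os alone, which are 1.56 and 2.34 percent of the list, where 0.403 and 1.05 percent of all genes tested were listed. Heatr1 and Nol10 were chosen from these tables, and of the other 126 factors 0 were listed after P-Por-Os+US and 2 after P-Por-Os alone. Besides Heatr1, the latter were Rrp12, which acts in maturation and export of pre-ribosomes, and Urb1, whose yeast counterpart acts in assembly of the large subunit. Mean RPKM of Rrp12 was 8.39 ± 0.876 in control and 18.8 ± 0.859 after P-Por-Os (SD, n = 3 each). For Urb1 the means were 1.09 ± 0.123 and 2.38 ± 0.101. The authors' deposited table has log2 folds of 1.04 for Rrp12 and 1.01 for Urb1. Of 18 genes of RNA polymerase I and its factors, only Taf1c, a subunit of the promoter selectivity factor, was listed, in P-Por-Os against control. Its means were 0.382 ± 0.0465 RPKM in control and 0.893 ± 0.0375 after P-Por-Os (SD, n = 3 each), and 16.7 percent of its exonic bases overlap exons of Dnaaf1 on the opposite strand. None of 17 snoRNA particle core and assembly genes, 40 snoRNA host genes, 82 cytosolic ribosomal protein genes or 20 p53 targets was in any table. Being absent from tables of selected genes does not show that a gene did not change.

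Of 1529 genes annotated or named as snoRNAs, 5 were listed after P-Por-Os+US, 1 after P-Por-Os and 1 with ultrasound against P-Por-Os. These are 0.327, 0.0654 and 0.0654 percent of the annotated snoRNAs, where 0.403, 1.05 and 0.179 percent of all genes tested were listed. How many of the 1529 snoRNAs were among the genes tested was not analysed here. Besides the 3 models described, Gm24451 and Mir5117 were listed after P-Por-Os+US. Gm24451, at chr2:130276237-130276369 on the plus strand, lies in Nop56 as Gm23187 does and carries the ACA letters. Its control libraries had 35.9, 28.5 and 31.4 RPKM, and the P-Por-Os+US libraries 73.3, 66.7 and 65.6. Its log2 fold of 1.03 in the authors' deposited table was below the 1.50 of Gm23187 in the same host gene. Within a library Gm24451 was 2.46 ± 0.551 times Gm23187 in control and 1.77 ± 0.246 times after P-Por-Os+US, and these ratios overlapped (SD, n = 3 each).

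Mir5117 is the name of a locus of 84 bases that GENCODE types as a snoRNA, with both C/D letters, inside Gas5, a non-coding snoRNA host gene. Its control libraries had 11.7, 3.95 and 10.8 RPKM, with replicate 2 apart from the others at 12 reads, and the P-Por-Os+US libraries 20.4, 17.4 and 18.5. Snora62, an H/ACA snoRNA inside the ribosomal protein gene Rpsa, was the model listed with ultrasound against P-Por-Os. It was at 22.3, 20.4 and 11.6 RPKM with ultrasound against 10.6, 9.53 and 7.83 without, with P-Por-Os+US replicate 3 close to the other group.

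By the root mean square difference of centred log2(RPKM + 1) values, the genes most like Heatr1 over 9 libraries were Hmgn2, Clca3a1 and Cd14, at 0.087, 0.12 and 0.13. Those most like Gm23187 over 9 libraries were Clca3b, Hmgn2 and Gm10282, at 0.22, 0.23 and 0.27. Over the 6 libraries of P-Por-Os+US and control, Nol10 was nearest to Cxcl5, Emp1 and Gimd1, at 0.070, 0.076 and 0.085. Snora75 was nearest to Gm37646, Gm24451 and Gm14317, at 0.13, 0.16 and 0.19, and Gm23202 to Gm28039, Cxcl5 and Snora75, each at 0.20. Among the 5 genes, Heatr1 and Nol10 were the closest pair, at 0.11 over 6 libraries, and both rest on more reads than the snoRNA models. Heatr1 with Gm23187 was measured over 9 libraries and the other pairs over 6. All rows compared were selected for being higher on the same libraries, so some likeness is built in.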

How the data were processed

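Stranded RNA-seq libraries of total RNA were sequenced as paired ends of 150 bases, per the labels' protocols, which name both an mRNA kit and a kit for ribosomal RNA depletion without saying which libraries each was used for. The submitters' processing notes name GRCm38, edgeR 3.12.1, fastp 0.23.4 and featureCounts (Subread 1.5.1). Which aligner, annotation and strand setting were used is not given in the sources used here. The authors deposited RPKM values per library for selected genes, and reads cannot be told from fragments. The deposited tables also hold the authors' log2 folds, log2 CPM, F score and p-values, per the file headers. Columns shared by the tables held identical values and were joined. The 5 genes and all gene lists were chosen with earlier results of these data known.

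Exonic lengths came from GENCODE M21, where 208 of 217 symbols occurred once. The library totals are those at which the largest share of values under 400 reads was whole within 0.05, which was 84.7 to 90.2 percent, against 9.21 to 10.0 percent at other totals. These reads state depth and were not tested as counts. Limma 3.58.1 in R 4.3.3 was run with trended variances, on log2 of RPKM plus a pseudocount of 1, without a filter. Its p-values were adjusted by the Benjamini-Hochberg method over 28 genes. As those genes were selected, the adjusted p-values are not those of a transcriptome-wide test. The limma step was tested on simulated data. These had neither the short length of the snoRNA models nor the selection of the 28 genes, so that test does not speak for them. Comparisons that list a gene were not tested for it. Other genes were named by rule: the 3 most alike, genes that overlap a member, and listed genes of the fixed lists. Deviations of same-numbered libraries correlated at r from -0.07 to 0.52 over 9 pairs, with only replicate 2 of control and P-Por-Os+US negative. These values do not exclude a shared replicate effect. The main fit assumed no pairing, and a fit with a replicate block is given as an alternative.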

Additional observations from a re-analysis of the deposited data

How the results depend on the processing

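All 5 genes after P-Por-Os+US, and both after P-Por-Os, also had an authors' adjusted p under 0.05. With a log2 fold of at least 2, 0 of the 5 and 0 of the 2 were left, since a higher minimum removes genes by construction. Of 70 alternative log2 ratios against control, 69 moved by less than 1 SD and 0 changed direction. The SD is that of single libraries, from the added variances of log2 RPKM in both groups. Leaving out 1 of 3 libraries can hardly move a mean that far, so nothing is read from the 42 such values. The selection of the genes nearly fixes the direction. The value that moved by more than 1 SD was that of Nol10, at 1.03 on the log2(RPKM + 1) scale against 1.10. The pseudocount lowers folds by construction. Leaving out each library gave log2 ratios for P-Por-Os+US against control of 0.98 to 1.23 for Heatr1, 1.08 to 1.14 for Nol10, 0.86 to 1.21 for Snora75, 1.49 to 1.67 for Gm23187 and 1.38 to 1.69 for Gm23202. For P-Por-Os against control they were 1.20 to 1.45 for Heatr1 and 1.65 to 1.82 for Gm23187.

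With ultrasound against without, Heatr1 differed by -0.23 to -0.13 and Gm23187 by -0.23 to -0.04 over 14 alternatives each, and neither passed an adjusted p of 0.05 in limma. With a replicate block, although same-numbered libraries share only a number, the differences stayed at -0.19 for Heatr1 (adjusted p = 0.10) and -0.15 for Gm23187 (adjusted p = 0.37). A fit of the treated libraries alone, chosen after seeing the data, gave adjusted p-values of 0.059 and 0.24. With the P-Por-Os+US values scaled by the offset from the authors' log2 folds, both differences shrank. They were then -0.13 for Heatr1 (limma adjusted p = 0.39) and -0.08 for Gm23187 (limma adjusted p = 0.69). Of the 3 genes most like Heatr1, 1 remained with a pseudocount of 0.1, and likewise for Gm23187. For Nol10 and Gm23202 2 remained, without Snora75 among those of Gm23202, and for Snora75 all 3 did. The alternatives of the limma tests against control were not run, since both genes with 9 values had been chosen by those comparisons. Depth limits Gm23202 most, at 11 to 42 reads per library.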

Other observations

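P-Por-Os+US replicate 1 held the highest value of its group for 5 of the 6 listed snoRNA models, all but Gm23187. Its value for Heatr1, 7.37 RPKM, was the lowest of the group. In control, replicate 1 was lowest for Heatr1 and Nol10, and replicate 2 was lowest for Snora75 and Gm23202. How often each library was highest or lowest over all listed genes was not analysed here. The part of single libraries in these levels was not tested.

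Grwd1, a nucleolar WD-repeat protein known as a chaperone of the ribosomal protein Rpl3, is a further biogenesis factor in the table of P-Por-Os against control. It was outside the gene lists and was chosen after its values were seen. Grwd1 was at 29.4, 30.1 and 28.2 RPKM after P-Por-Os against 11.8, 12.6 and 14.6 in control, with a log2 fold of 1.05 in the authors' deposited table. As for Heatr1, Rrp12 and Urb1, control replicate 3 was the highest control library.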
